A study of Mus musculus with 3 samples.

Results

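The genes described here, in adult lung endothelial cells (ECs), make nitric oxide (NO), aid or limit its synthesis or signal through cyclic GMP (cGMP). They were picked by gene name, with no level as a criterion but with earlier results of these data known, and are the NO synthases *Nos1*, *Nos2* and *Nos3*, the soluble guanylate cyclase subunits *Gucy1a3* and *Gucy1b3* (now also called *Gucy1a1* and *Gucy1b1*), the cGMP-dependent kinase *Prkg1*, the dimethylarginine hydrolases *Ddah1* and *Ddah2*, and the arginases *Arg1* and *Arg2*. All 10 have a row among the 24346 gene symbols of the table. The values come from 3 bulk RNA-seq libraries, called S38, S44 and S52, of 1 condition: wild-type lung ECs taken fresh from C57BL/6J males, aged 6 to 8 weeks. The mice received an antibody to VE-cadherin through the circulation before they were killed, and cells positive for CD31 and negative for CD45 and podoplanin were sorted. Neither the labels nor the study's methods say which mice gave which library, so the spread between libraries may be partly technical. No other organ, stage or treatment was analysed here, and no difference between conditions could be tested.

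NO synthases convert arginine to citrulline and NO with the help of calmodulin and the cofactor tetrahydrobiopterin. NO crosses to neighbouring cells and binds the haem of soluble guanylate cyclase, an obligate dimer of an alpha and a beta subunit, whose product cGMP activates the kinase encoded by *Prkg1* and relaxes vascular smooth muscle. Asymmetric dimethylarginine, released from methylated proteins, blocks the synthases and is degraded by the product of *Ddah1*, whereas arginases compete with the synthases for arginine. In the lung, NO from the endothelium is known for keeping pulmonary vascular resistance low.

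The levels are the deposited FPKM, a fragment count per kilobase of gene and per library size, so that levels of different genes are compared per length. Depth was estimated from the steps between low values at 38000000 fragments for S38, 38900000 for S44 and 34000000 for S52. Genes with a mean level of 1 FPKM or more count as detected. The 10 endothelial markers were all detected in the sorted fraction, with summed levels between 6276 and 7063 FPKM, but single markers were less even, up to *Erg* with 1.97-fold between its highest and lowest library. S52 stood apart in genes of other cells. The 7 platelet markers summed to 1838 (S38), 1475 (S44) and 46.8 FPKM (S52), the 5 alveolar type 2 markers to 3756, 3156 and 760 FPKM, and the 5 airway markers to 2767, 2303 and 401 FPKM. The 5 fibroblast markers differed less, with sums of 75.7, 57.6 and 44.2 FPKM. The results below are therefore also given without S52 where this matters. In bulk samples, fewer cells of a type and less RNA per cell cannot be told apart.

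Of the 10 genes, 7 were detected, or 70.0%, where 48.3% of all genes of the table were. *Ddah2* was the highest by far, *Gucy1b3*, *Ddah1*, *Nos3* and *Gucy1a3* lay between 10 and 40 FPKM on average, and *Nos2* and *Prkg1* were low. *Arg1*, *Arg2* and *Nos1* stayed under 1 FPKM in every library. The plot of the genes by library shows these levels in the order of their roles.

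**Figure D1:**
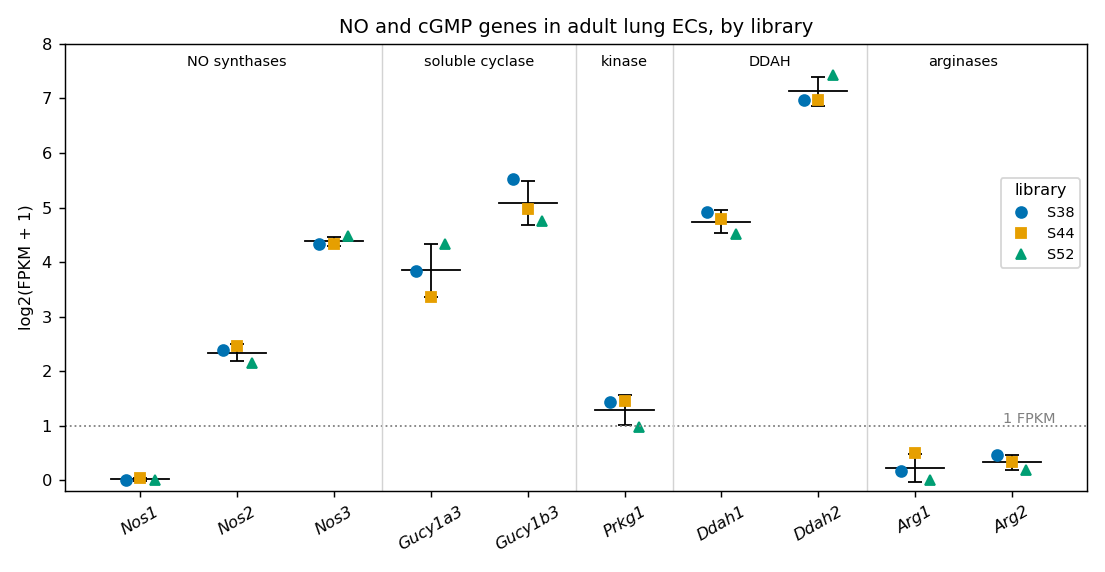
Level of each of the 10 genes as log2(FPKM + 1) in the libraries S38 (circles), S44 (squares) and S52 (triangles) of adult lung ECs; horizontal lines are means and bars the SD over the 3 libraries. *Ddah2* lies above all other genes in each library, *Nos3* has the smallest spread of the 7 detected genes as deposited (with the libraries rescaled to the same endothelial marker median, *Nos2* and *Ddah1* have smaller ones), and *Nos1*, *Arg1* and *Arg2* lie below the dotted line at 1 FPKM.

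*Nos3*, the endothelial NO synthase gene, spans chromosome 5 from 24364810 to 24384474 (mm10, equal to GRCm38; plus strand), and its longest transcript has 26 exons. It was at 19.2 (S38), 19.1 (S44) and 21.2 FPKM (S52), or 19.8 ± 1.18 FPKM (SD, n = 3). The libraries were close together, with S52 slightly the highest as deposited and S38 the highest when each library was rescaled to the same sum of FPKM. The SD was 5.97% of the mean. Of all detected genes, 90.1% varied more. An estimated 2859 to 2948 fragments stand behind each value, for a counting error of at most 1.87%, which was smaller than the spread between libraries. *Nos3* ranked 3947 among all genes. It was nevertheless below all 10 endothelial markers in each library, at 3.69%, 3.56% and 4.44% of their median in S38, S44 and S52.

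The transcript of *Nos3* overlaps genes on the opposite strand, which matters because the libraries do not keep the strand. Of its 4132 exonic bases, 294 are also exonic in *Atg9b* and 1040 in the antisense gene *Gm15587*. Of the 4082 windows of read length (51 bases) in the longest transcript, 816 (20.0%) also occur, reverse-complemented, in a transcript of these genes. *Atg9b*, an autophagy gene, was listed at 0.260, 0.259 and 2.42 FPKM, and *Gm15587* has no row in the table. The level of *Nos3* can therefore include fragments of its antisense partners, and their share was not tested.

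*Nos2*, the inducible NO synthase known from activated macrophages, lies on chromosome 11 from 78920787 to 78960254 (plus strand) and shares no read-length window with another gene. It was at 4.24 (S38), 4.50 (S44) and 3.46 FPKM (S52), or 4.07 ± 0.544 FPKM (SD, n = 3), with S52 the lowest. An estimated 474 to 706 fragments stand behind each value. Within a library *Nos3* was 4.24 to 6.12 times as high as *Nos2*, and the mean difference on the log2(FPKM + 1) scale was 2.04 ± 0.24 (SD, n = 3), or 1.91 without S52. *Nos3* was higher in 3 of 3 libraries, which gave p = 0.25 in a two-sided exact sign-flip permutation test. That is the smallest p that 3 libraries allow, so no comparison between genes made here could pass 0.05.

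Markers of macrophages and other myeloid cells were present beside *Nos2*. Of 8 such markers, 4 were detected, and the summed level of the 8 was 1072 (S38), 814 (S44) and 185 FPKM (S52). Nearly all of it came from *Lyz2*, at 1047, 780 and 166 FPKM, a lysozyme gene that alveolar type 2 cells also express. The alveolar macrophage gene *Marco* was at 0.461 and 0.561 FPKM in S38 and S44 and listed at 0 in S52. Of 5 neutrophil markers, 3 were detected, the 5 summed to 36.7, 48.1 and 2.90 FPKM, and *Camp* was listed at 0 in every library. Both sums were lowest in S52, like *Nos2*, but to a different degree. Between the highest and lowest library the myeloid sum differed 5.80-fold and the neutrophil sum 16.6-fold, and *Nos2* 1.30-fold. The macrophage markers did not move together. *Cd68* was at 27.4 FPKM in S44 and 16.7 FPKM in S52, with 1.64-fold between its highest and lowest library, and *Csf1r* at 1.25, 1.85 and 1.30 FPKM, both highest in S44, whereas *Ptprc*, the gene of CD45, was at 4.30, 2.06 and 0.434 FPKM. The part of these cells in the level of *Nos2* was not tested.

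*Nos1*, the neuronal NO synthase (chromosome 5, 117841850 to 117958840, plus strand), was listed at 0 in S38 and S52 and at 0.0268 FPKM in S44, an estimated 10.4 fragments. A count of 0 allows up to 0.00792 FPKM in S38 and 0.00886 FPKM in S52 for a transcript of this length (3 fragments, counting error only). *Nos1* was thus not detectable in 2 libraries and close to the limit in the remaining one. Of its read-length windows, 219 of 10073 also occur in other genes. Among 5 neuronal markers only *Uchl1* and *Tubb3* were detected, and *Elavl4* and *Prph* were at 0 in S38 and S52.

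The subunits of soluble guanylate cyclase are encoded close to each other on the minus strand of chromosome 3, *Gucy1b3* from 82032006 to 82074689 and *Gucy1a3* from 82092427 to 82145787. Both were detected in every library and shared no read-length window with another gene. *Gucy1b3*, the beta subunit that carries the haem, was at 45.1 (S38), 30.3 (S44) and 25.8 FPKM (S52), or 33.7 ± 10.1 FPKM (SD, n = 3). *Gucy1a3*, its alpha partner, was at 13.4 (S38), 9.25 (S44) and 19.2 FPKM (S52), or 13.9 ± 4.99 FPKM (SD, n = 3). The beta subunit was highest in S38 and lowest in S52, whereas the alpha subunit was highest in S52 and lowest in S44.

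The alpha subunit was lower than the beta subunit in 3 of 3 libraries, but not to the same degree. The FPKM ratio of *Gucy1a3* to *Gucy1b3* was 0.297 and 0.305 in S38 and S44, and 0.743 in S52. On the log2(FPKM + 1) scale the mean difference was -1.23 ± 0.71 (SD, n = 3; exact sign-flip permutation test, p = 0.25), and without S52 it was -1.65. The ratio was thus nearly equal in S38 and S44 and over 2 times as high in S52. At 1637 to 2967 estimated fragments for *Gucy1a3* and 2687 to 5244 for *Gucy1b3*, counting error was at most 2.47% in each library.

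Of the detected genes, *Gucy1a3* alone had a highest library over 2-fold above its lowest, at 2.07-fold, that is 1 of 7 (14.3%), where 20.1% of all detected genes did. The call rests on S44 and S52, and without either of them no gene was over 2-fold apart. Of all detected genes, 14.8% were over 2-fold apart without S44 and 5.06% without S52. *Gucy1b3* reached 1.75-fold and *Prkg1* 1.82-fold.

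The cyclase subunits are known to be abundant in smooth muscle cells, pericytes and platelets. All 10 mural markers were detected, with sums of 248 (S38), 149 (S44) and 237 FPKM (S52), and none was at 0. Their median deviation from the mean of the libraries, on the log2(FPKM + 1) scale, was 0.17, -0.50 and 0.37, and the deviation of *Gucy1a3* was -0.00077, -0.49 and 0.49. The list did not move as a whole. All 10 were lowest in S44, but the contractile genes *Acta2*, *Myh11*, *Tagln*, *Cnn1* and *Des* were highest in S38, whereas *Pdgfrb*, *Cspg4*, *Rgs5*, *Notch3* and *Higd1b*, known from pericytes, were highest in S52, like *Gucy1a3*. *Gucy1b3* was instead lowest in S52, as were the platelet markers and the sums of the alveolar type 2 and airway markers. *Gucy1b3* fell more from S38 to S44 (45.1 to 30.3 FPKM) than from S44 to S52 (25.8 FPKM). The platelet sum fell mainly from S44 to S52 (1475 to 46.8 FPKM). The least abundant platelet marker in S52, *Gp6*, was still at 1.95 FPKM. The parts of mural cells and platelets in these levels were not tested. The plot of library deviations sets the genes beside these markers.

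**Figure D2:**
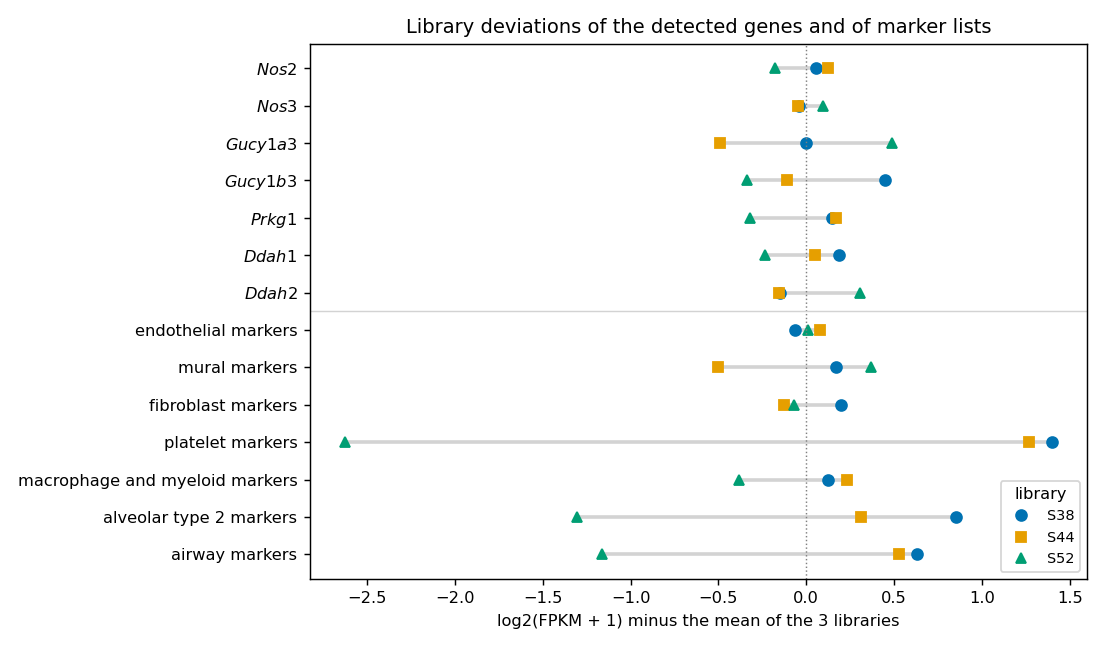
Deviation of each library from the mean of S38, S44 and S52 on the log2(FPKM + 1) scale, for the 7 detected genes (upper part) and as medians of 7 marker lists (lower part); grey bars span the 3 libraries. The median of the endothelial markers stays within 0.08 of 0, that of the platelet markers is -2.62 in S52, and *Gucy1a3* and the median of the mural markers are lowest in S44 and highest in S52, although 5 of the 10 mural markers were highest in S38.

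The other soluble cyclase subunits added little. *Gucy1a2*, the alternative alpha subunit, was at 0.163 (S38), 0.181 (S44) and 0.883 FPKM (S52), and *Gucy1b2* was listed at 0 in every library.

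The promoter sequences of the cyclase subunits are shown as a description of these neighbouring genes, which encode the subunits of a single enzyme. A link between their letters and the levels was not tested. They come from RefSeq (GRCm38.p6), which gave an entry for 6 of the 10 genes and none for *Nos2*, *Nos3*, *Arg1* or *Arg2*, and cover 250 bases before to 50 bases after a start. Capitals mark GGGCGG on either strand, the core of the GC box bound by Sp1, which 35.7% of 32851 promoters of this length hold. The start of *Gucy1b3* (chr3:82074662-82074961, minus strand) holds 6 CpG dinucleotides, 1 such match and 2 matches to CCAAT on either strand, a motif found in 37.4% of promoters. The upstream start of *Gucy1a3* (chr3:82145601-82145900, minus strand) holds 14 CpG, 1 GGGCGG and no CCAAT, and the median of all promoters is 7 CpG. A second start of *Gucy1a3* (chr3:82145024-82145323, minus strand), which is not printed, holds 15 CpG and neither motif. TATAAA, found in 13.6% of promoters, is in none of these windows.
Gucy1b3: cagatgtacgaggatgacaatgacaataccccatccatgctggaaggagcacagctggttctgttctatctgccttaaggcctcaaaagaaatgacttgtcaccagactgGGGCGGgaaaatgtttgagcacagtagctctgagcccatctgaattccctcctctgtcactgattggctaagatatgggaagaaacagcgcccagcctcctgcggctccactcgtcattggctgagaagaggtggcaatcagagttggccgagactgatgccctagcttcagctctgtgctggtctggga
Gucy1a3: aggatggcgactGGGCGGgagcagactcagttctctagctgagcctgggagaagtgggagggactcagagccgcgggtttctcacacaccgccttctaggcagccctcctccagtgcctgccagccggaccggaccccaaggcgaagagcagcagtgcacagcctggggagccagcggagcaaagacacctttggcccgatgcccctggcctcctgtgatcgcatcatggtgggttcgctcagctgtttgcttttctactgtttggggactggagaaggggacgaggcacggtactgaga

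*Prkg1*, the gene of the main vascular cGMP-dependent kinase, spans chromosome 19 from 30564489 to 31765033 (minus strand). It was at 1.70 (S38), 1.75 (S44) and 0.958 FPKM (S52), or 1.47 ± 0.443 FPKM (SD, n = 3). S38 and S44 were alike and S52 was under the detection threshold, so the gene counted as detected by its mean and in 2 of 3 libraries. An estimated 441, 463 and 222 fragments gave these values. *Prkg2*, its relative, was lower still in S52, at 1.29, 1.06 and 0.0453 FPKM, and *Mrvi1*, whose product IRAG is phosphorylated by the kinase at the endoplasmic reticulum, was at 8.75, 6.63 and 0.688 FPKM. All these genes were lowest in S52, the library with the lowest sums of platelet, alveolar type 2, airway, myeloid and neutrophil markers. The median deviation of the mural markers was instead highest in S52, at 0.37, although not all of these markers were highest there. Platelets are known to use the kinase encoded by *Prkg1* and IRAG. The parts of platelets and mural cells in these levels were not tested.

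*Ddah2* (chromosome 17, 35059035 to 35062095, plus strand) encodes the DDAH isoform known from vascular and immune cells. It was at 125 (S38), 125 (S44) and 172 FPKM (S52), or 141 ± 27.1 FPKM (SD, n = 3). S38 and S44 were almost equal and S52 was the highest. At rank 646 it was above 97.3% of all genes, and it exceeded 1 of the 10 endothelial markers, *Erg*, in each library. *Ddah1* (chromosome 3, 145758675 to 145894277, plus strand), the isoform known for degrading most circulating dimethylarginine, was at 29.4 (S38), 26.7 (S44) and 21.7 FPKM (S52), or 25.9 ± 3.89 FPKM (SD, n = 3), and was lowest in S52.

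*Ddah2* was 4.26, 4.69 and 7.93 times as high as *Ddah1* in S38, S44 and S52. The mean difference was 2.39 ± 0.47 on the log2(FPKM + 1) scale (SD, n = 3; *Ddah2* higher in 3 of 3 libraries; exact sign-flip permutation test, p = 0.25). The genes parted in opposite directions in S52, and without that library the difference was 2.12. Neither gene shares a read-length window with the other or with any other gene.

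The promoters of the isoforms are printed in the same way as those of the cyclase. *Ddah2* (chr17:35058785-35059084, plus strand) holds 3 matches to GGGCGG on either strand and 12 CpG. *Ddah1* (chr3:145758442-145758741, plus strand) holds none in these letters and 23 CpG, more than 78.5% of all promoters. A match describes the letters and not the binding of a factor, and a link to the levels was not tested.
Ddah2: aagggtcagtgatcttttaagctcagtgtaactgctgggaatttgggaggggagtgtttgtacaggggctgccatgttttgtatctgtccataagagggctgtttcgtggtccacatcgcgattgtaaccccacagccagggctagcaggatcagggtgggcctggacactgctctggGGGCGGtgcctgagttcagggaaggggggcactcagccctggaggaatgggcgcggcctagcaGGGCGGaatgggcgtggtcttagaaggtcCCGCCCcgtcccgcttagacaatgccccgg
Ddah1: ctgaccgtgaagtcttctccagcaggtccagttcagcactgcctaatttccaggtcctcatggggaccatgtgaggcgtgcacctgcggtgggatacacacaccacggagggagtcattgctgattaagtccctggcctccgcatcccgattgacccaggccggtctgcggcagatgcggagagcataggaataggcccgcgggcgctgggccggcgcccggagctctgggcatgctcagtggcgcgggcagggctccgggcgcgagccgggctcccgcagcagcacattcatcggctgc

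The arginases rested on few fragments. *Arg2*, the mitochondrial arginase, was at 0.376 (S38), 0.265 (S44) and 0.140 FPKM (S52), an estimated 18.1, 13.1 and 6.04 fragments. *Arg1*, the cytosolic arginase of liver and of some macrophages (chromosome 10, 24915221 to 24927484, minus strand), was at 0.120 and 0.409 FPKM in S38 and S44, an estimated 5.98 and 20.9 fragments, and was listed at 0 in S52, where 3 fragments correspond to 0.0670 FPKM. The order of the arginases differed between libraries, with *Arg2* higher in S38 and S52 and *Arg1* higher in S44, so the libraries gave no common order. The mean difference on the log2(FPKM + 1) scale was 0.11 ± 0.24 (SD, n = 3; exact sign-flip permutation test, p = 0.5).

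*Arg2* (chromosome 12, 79130777 to 79156301, plus strand) meets *Vti1b*, a membrane fusion gene, at its 3′ end on the opposite strand. Of its 1428 exonic bases 285 are also exonic in *Vti1b*, and 290 of its 1378 read-length windows (21.0%) also occur in *Vti1b* or *Gm48780*. *Vti1b* was at 43.4, 42.1 and 44.6 FPKM, far above *Arg2*. Whether the few fragments credited to *Arg2* belong to *Vti1b* was not tested. *Nos3* was at least 51.0 times as high as *Arg2* in each library, with a mean difference of 4.05 ± 0.21 on the log2(FPKM + 1) scale (SD, n = 3; exact sign-flip permutation test, p = 0.25).

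Ordered by mean level, the genes ran *Ddah2*, *Gucy1b3*, *Ddah1*, *Nos3*, *Gucy1a3*, *Nos2*, *Prkg1*, *Arg2*, *Arg1* and *Nos1*. The ranges of the libraries overlapped for *Gucy1b3* and *Ddah1*, for *Nos3* and *Gucy1a3*, for *Arg2* and *Arg1* and for *Arg1* and *Nos1*, so that these neighbours did not differ beyond the spread of their levels over libraries. Within each library, *Gucy1b3* was nevertheless above *Ddah1* and *Nos3* above *Gucy1a3*, in 3 of 3 libraries. The gap between *Ddah1* and *Nos3* was narrow, with 21.7 FPKM as the lowest value of *Ddah1* and 21.2 FPKM as the highest of *Nos3*. The remaining neighbours did not overlap.

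A list of 60 other genes of the pathway gives the setting of these levels. Of these, 44 (73.3%) were detected, where 48.3% of all genes of the table were. The counts of detected genes in the single lists below stand beside the same share. Their median was 13.7 FPKM, where that of all genes was 0.784 FPKM. Of the 44, 9 (20.5%) were over 2-fold apart between libraries, a share near that of all detected genes. The 9 include *Hba-a2*, whose level cannot be told apart from that of its copy *Hba-a1*.

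For the substrate, 3 of 4 genes of arginine supply were detected. *Slc7a1*, the main arginine transporter, was at 4.19 ± 0.663 FPKM and *Asl*, which returns citrulline to arginine, at 8.89 ± 0.866 FPKM (SD, n = 3 for each). *Ass1*, the step before *Asl*, was at 7.26 and 5.98 FPKM in S38 and S52 and at 26.9 FPKM in S44, the only gene of this list whose libraries were over 2-fold apart among those detected. *Odc1* and *Oat*, which use the ornithine that arginases make, were at 122 ± 22.1 and 40.2 ± 7.03 FPKM (SD, n = 3 for each), far above the arginases themselves.

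Of 7 tetrahydrobiopterin genes, 5 were detected. *Gch1*, the first and limiting enzyme of its synthesis, was at 18.2, 26.7 and 19.9 FPKM, close to *Nos3*. *Gchfr*, its feedback regulator, was at 16.7 ± 4.03 FPKM, *Pts* at 10.9 ± 0.846 FPKM, *Spr* at 32.0 ± 3.67 FPKM and *Qdpr*, which recycles the cofactor, at 32.9 ± 7.09 FPKM (SD, n = 3 for each). *Pcbd1*, a recycling gene, was not detected, with a mean of 0.0652 FPKM.

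All 11 genes of proteins that bind or regulate the synthases were detected. *Cav1*, the caveolar protein that holds the endothelial synthase inactive, was at 1294 ± 37.1 FPKM (SD, n = 3) and varied little. The chaperone genes were less even, with *Hsp90aa1* at 244, 194 and 511 FPKM and *Hsp90ab1* at 754, 625 and 1210 FPKM, both highest in S52. *Calm2* was the highest of the calmodulin genes, at 428 ± 34.5 FPKM, *Nostrin*, which moves the synthase away from the membrane, was at 162 ± 22.8 FPKM and *Akt1*, a kinase that activates it, at 90.1 ± 10.5 FPKM (SD, n = 3 for each).

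On the side of methylarginines, *Prmt1*, the main source of asymmetric dimethylarginine, was at 54.3 ± 6.54 FPKM (SD, n = 3), and 4 of 5 genes were detected. *Agxt2*, an alternative route of disposal, was listed at 0 in every library. For the removal of NO, *Adh5*, the S-nitrosoglutathione reductase, was at 52.5 ± 2.56 FPKM (SD, n = 3) and *Cyb5r3*, which reduces alpha globin in vessel walls, at 133, 107 and 233 FPKM.

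Alpha globin itself is known to scavenge NO in endothelium. Its copies *Hba-a1* and *Hba-a2* share 437 of the 504 read-length windows of *Hba-a2*, so the text gives only their sum, at 204 (S38), 467 (S44) and 91.0 FPKM (S52). The beta globin rows *Hbb-bs* and *Hbb-b1* summed to 226, 713 and 113 FPKM in the same order of libraries. Of the 5 erythroid markers 3 were detected, and *Slc4a1* was at 0 in S52. The part of red cells in the alpha globin level was not tested.

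Among membrane guanylate cyclases, *Npr1*, the receptor of atrial natriuretic peptide, was at 105, 115 and 87.6 FPKM, above both soluble subunits in each library. *Npr3*, the clearance receptor without cyclase activity, was at 55.6 ± 14.2 FPKM and *Npr2* at 3.51 ± 1.22 FPKM (SD, n = 3 for each). *Gucy2c* was listed at 0 in every library, and *Gucy2g* had a mean of 0.0324 FPKM.

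Of 11 phosphodiesterase genes, 6 were detected. *Pde9a*, specific for cGMP, was the highest at 76.1 ± 10.6 FPKM, followed by *Pde3a*, a cAMP hydrolase that cGMP inhibits, at 31.6 ± 4.41 FPKM and *Pde6d*, a carrier of prenylated proteins rather than a hydrolase, at 28.1 ± 0.989 FPKM (SD, n = 3 for each). *Pde5a*, the target of sildenafil, was at 14.9 and 15.3 FPKM in S38 and S52 and lowest in S44, with 1.27-fold between the highest and the lowest library. *Pde2a*, which cGMP stimulates, was at 2.51, 3.59 and 1.61 FPKM, and *Pde1a* at 2.91, 1.21 and 2.12 FPKM, both over 2-fold apart between libraries.

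Of 8 genes of the cGMP kinases and their targets, 5 were detected. *Vasp*, whose phosphorylation is used as a readout of the kinase, was at 63.2 ± 2.85 FPKM, *Ppp1r12a*, the myosin phosphatase subunit, at 28.2 ± 7.68 FPKM and *Rgs2* at 12.2 ± 1.40 FPKM (SD, n = 3 for each). The smooth muscle genes *Kcnma1* and *Pln* were not detected by their means, although *Pln* was at 1.08 FPKM in S38. All 10 mural markers were detected. *Trpc6*, at 2.62, 1.86 and 5.01 FPKM, was lowest in S44 and highest in S52, like the median deviation of the mural markers. The plot of the other pathway genes shows those detected.

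**Figure D3:**
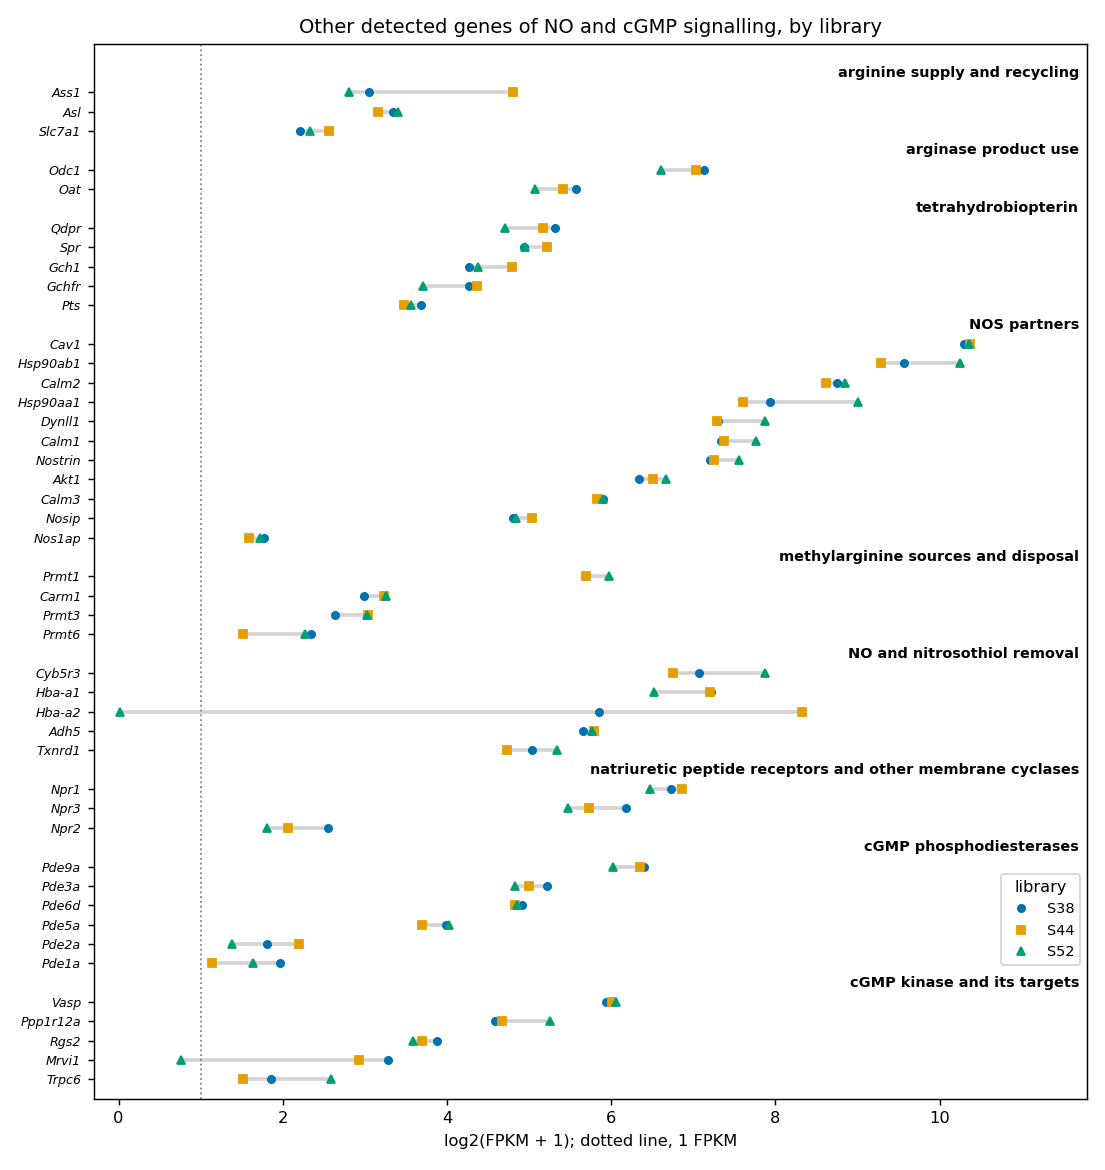
Levels of the 44 detected genes among 60 other genes of NO and cGMP signalling as log2(FPKM + 1) in S38 (circles), S44 (squares) and S52 (triangles), grouped by role and ordered by mean within each group; grey bars span the 3 libraries and the dotted line marks 1 FPKM. *Cav1* is the highest, and *Mrvi1* and *Ass1* show wide gaps between libraries; the separate points of *Hba-a1* and *Hba-a2* are uncertain, since these copies share most of their sequence.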

How the data were processed

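The deposited table of the authors holds FPKM for each gene symbol (mm10) in 3 libraries of sorted adult lung ECs, made with a poly-A selected, non-stranded kit and paired reads of 51 bp. The submitters' processing notes list bcl2fastq 2.17, FastQC 0.11.5, Trimmomatic 0.36, TopHat2 2.1.0 and Cufflinks 2.2.1, with no roles given, whereas the study's methods describe STAR and HTSeq for its normalized counts. The gene annotation behind the FPKM values is not given in the sources used here. Values were used without rescaling, and no count model was fitted because FPKM are not counts. No column of other samples was present.

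Means and SDs used FPKM, and differences between genes used log2(FPKM + 1), which understates differences of low genes, with exact sign-flip permutation tests over libraries. Depth was the value that made FPKM multiplied by length (minus 160 bp) of 7077 genes (1 basic transcript in GENCODE M21, 800 to 4000 bp long) fall on whole fragments. Of the values between 0.5 and 8 fragments, 78.0% of 382 in S38, 77.3% of 503 in S44 and 72.7% of 242 in S52 lay within 0.15 of a whole number. The search was tested on simulated counts and missed the true depth by at most 0.333%. The simulation used the same transcript lengths as the search. Its error therefore does not cover a difference between these lengths and the unstated annotation of the deposited values. It was chosen after the values were seen. Fragments of a gene were estimated from its longest coding transcript, and intervals and limits cover counting error only. Positions are those of basic GENCODE M21 transcripts on GRCm38, and read-length windows were searched in all its transcripts on both strands.

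The genes, the 10 pathway lists and the 10 marker lists were chosen with earlier results of these data known. The genes named are the members, the genes of these lists and the 5 genes closest to *Nos3*. Further genes were named for overlapping a member, and a few genes that the rule names are not reported here. The alternatives were other scalings, thresholds, pseudocounts and leaving out each library. Python 3.11.15, pandas 2.3.3, numpy 2.4.6 and matplotlib 3.10.9 were used.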

Additional observations from a re-analysis of the deposited data

How the results depend on the processing

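Replicates 1, 2 and 3 are S38, S44 and S52. No paired analysis was possible because the samples analysed here form 1 group. The number of genes over 2-fold apart between libraries depended most on the settings. It was 1 as reported, 0 to 1 when a library was left out, 3 after each library was rescaled to the same sum of FPKM, 0 with no filter on low values and a ratio of FPKM + 1, 3 at 1.5-fold and 0 at 3-fold. Under the last 3 settings 7.53%, 41.7% and 9.36% of all genes tested were past the fold, and without S38, S44 or S52 13.5%, 14.8% and 5.06% were. Rescaling to the same sum shifted the median of detected genes by -0.21, -0.68 and -0.51 on the log2 scale in S38, S44 and S52. Short noncoding genes took 60.2% to 70.4% of each sum. Of all detected genes 25.8% were then over 2-fold apart. The rescaling brought *Gucy1b3* (2.15-fold) and *Prkg1* (2.18-fold) past 2-fold beside *Gucy1a3* (2.34-fold) and made S38 instead of S52 the highest library of *Nos3*, at 16.6, 11.9 and 14.9. *Gucy1a3* and *Ddah2* stayed highest in S52, and *Gucy1b3*, *Ddah1*, *Nos2* and *Prkg1* lowest there, under the 4 scalings tried, 1 of which (the same endothelial marker median) was added after the data were seen. The 5 differences between genes kept their sign in all 25 settings tried, which left out a library or changed the pseudocount. For all but the arginases this was fixed in advance, because every library had the same sign and no such setting could reverse it. The difference of the arginases ranged from 0.017 to 0.63. Of 70 alternative member levels, 66 moved by less than 1 SD of the libraries. The other 4 were *Nos2*, *Nos3*, *Ddah1* and *Ddah2* rescaled to the same sum. That sum was set below the deposited sum of every library, so all levels fell in this setting, *Nos3* for example to 14.5. The other scalings kept the mean total. These 4 moves therefore include a change of unit and do not by themselves show that the levels depend on scaling. Leaving out 1 of 3 libraries cannot move a mean by 1 SD, so those settings were bound to be among the 66. The number of members detected was between 5 (mean of at least 10 FPKM) and 9 (0.1 FPKM). The share of all genes was not computed at these thresholds, so these counts only show how the number depends on the cutoff. The levels of *Nos1* and the arginases rest on at most 20.9 estimated fragments per library.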

Other observations

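Among 23028 genes other than short noncoding ones, those whose level was closest to *Nos3* in all 3 libraries included *BC004004*, *Uvrag*, *Actr8* and *Man2b1*. The measure was the largest absolute difference from *Nos3* in log2(FPKM + 1) over the 3 libraries, which was 0.026 for *BC004004* and 0.055 for *Man2b1*. *Uvrag*, an autophagy gene, was at 19.8 (S38), 19.3 (S44) and 21.7 FPKM (S52), and *Man2b1*, a lysosomal mannosidase gene, at 19.4, 18.4 and 22.0 FPKM. With 3 libraries of 1 condition this likeness is of level alone.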
